A study of Rattus norvegicus with 27 samples.

Results

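Saliva is a salt solution that acinar cells pump across themselves, and 9 genes of that machinery were followed through the development of the rat parotid acinus, the serous secretory end piece of this salivary gland. The members were the water channels Aqp5 and Aqp1, the chloride channels Ano1 and Cftr, the chloride transporter Clcn3, the potassium channels Kcnn4 and Kcnma1, the sodium-potassium-chloride cotransporter Slc12a2 and the sodium pump subunit Atp1b1. All probe sets named for 1 of these genes were taken, which gave 16 of the 31042 probe sets tested. For a gene with several probe sets, the one with the highest mean over the arrays leads. Acinar cells were cut by laser capture microdissection (LCM) from stained sections of Sprague Dawley rats, for which the labels name no treatment and no altered gene. The 27 Affymetrix rat genome arrays spanned 9 ages, with 3 arrays at each, which came from separate litters. E18 and E20 were embryonic, P0 fell on the day of birth, and P2, P5, P9, P15, P20 and P25 count days after it. Values are log2 expression after robust multi-array averaging (RMA), so that 1 unit is a doubling, and the median probe set averaged 6.07.

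In the accepted scheme of salivary secretion, the sodium pump keeps sodium low inside the acinar cell and NKCC1, the product of Slc12a2, uses that gradient to load chloride through the basolateral membrane. Nerve signals raise calcium, which opens the chloride channel TMEM16A, encoded by Ano1, in the apical membrane and potassium channels that hold the membrane potential while chloride leaves. Sodium follows between the cells, and water follows the salt through aquaporin 5.

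The study's 4 stages set the comparisons. Stage 1 joined E18, E20 and P0 (9 arrays). Stage 2 joined P2 with P5, stage 3 joined P9 with P15 and stage 4 joined P20 with P25 (6 arrays each). The birth step is stage 2 minus stage 1, the middle step stage 3 minus stage 2, and the weaning step stage 4 minus stage 3. The stage limits were drawn by the study from these same arrays. Sections came from halved heads up to P5 and from the dissected gland after that, so the middle step and the change of preparation cannot be told apart.

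Acinar markers were present from P2 on at higher levels than before. Mean levels of the 7 measured acinar markers lay at 3.97 to 6.47 per array in stage 1, 8.33 to 9.13 in stage 2, 8.85 to 10.67 in stage 3 and 12.92 to 13.19 in stage 4. Among them Dnase1 averaged 3.91 at P2, 4.01 at P5 and 3.69 at P9, and 13.05 at P20. Fibroblast markers were high on every array, with means of 9.66 to 12.23 over the 9 genes. Skeletal muscle markers ranged from 4.70 to 12.64 over the arrays, highest on P9 replicate 3, and epidermis and hair follicle markers from 4.63 to 9.82, highest on P5 replicate 2. Without P5 replicate 2, which enters the birth step only, the members still had 4 probe sets past the threshold in that step. Without P9 replicate 3, which enters the weaning step and not the birth step, they still had 9 in the weaning step. Replicate 1 of E18, E20 and P0, with skeletal muscle means of 11.63, 11.9 and 11.45, stayed in both fits. Arrays of 1 age correlated with each other at 0.873 to 0.962, and no pair was identical.

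The genes lie apart in the genome, with Ano1 and Kcnn4 on chromosome 1, Aqp1 and Cftr on 4, Aqp5 on 7, Atp1b1 on 13, Kcnma1 on 15, Clcn3 on 16 and Slc12a2 on 18. RefSeq promoters of build GRCr8, 250 bases before to 50 after the start of transcription, matched 7 of the 9 genes. Below are those of 4 genes that moved with age and of Clcn3, which did not pass the test over ages, each 5′ to 3′ on the strand of its gene. The windows are chr7:132601278-132601577 for Aqp5, chr1:209329289-209329588 for Ano1, chr15:351675-351974 for Kcnma1, chr18:53546083-53546382 for Slc12a2 and chr16:34137754-34138053 for Clcn3. Ano1 is on the minus strand and the others on the plus strand. Capitals mark GGGCGG or its complement CCGCCC, the core of a GC box, the E-box CACGTG in Aqp5, and TGACGT or ACGTCA, the core of a cyclic AMP response element, in Clcn3.
Aqp5 promoter: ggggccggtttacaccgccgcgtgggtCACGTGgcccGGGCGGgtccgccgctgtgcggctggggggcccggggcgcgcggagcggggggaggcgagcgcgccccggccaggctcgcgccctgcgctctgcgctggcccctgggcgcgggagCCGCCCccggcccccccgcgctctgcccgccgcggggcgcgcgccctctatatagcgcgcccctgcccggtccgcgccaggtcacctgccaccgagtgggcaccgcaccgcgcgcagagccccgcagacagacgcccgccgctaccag
Ano1 promoter: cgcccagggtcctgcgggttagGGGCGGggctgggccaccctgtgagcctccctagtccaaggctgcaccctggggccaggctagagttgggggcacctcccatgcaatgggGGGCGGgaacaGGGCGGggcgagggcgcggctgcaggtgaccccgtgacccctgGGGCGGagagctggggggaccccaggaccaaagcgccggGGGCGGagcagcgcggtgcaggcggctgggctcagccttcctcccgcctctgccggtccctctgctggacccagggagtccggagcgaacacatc
Kcnma1 promoter: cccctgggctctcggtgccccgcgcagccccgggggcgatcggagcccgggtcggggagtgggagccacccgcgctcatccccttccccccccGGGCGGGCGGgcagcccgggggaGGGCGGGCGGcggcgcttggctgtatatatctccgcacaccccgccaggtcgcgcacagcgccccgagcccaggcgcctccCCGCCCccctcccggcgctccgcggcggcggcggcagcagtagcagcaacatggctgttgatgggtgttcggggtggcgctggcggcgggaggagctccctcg
Slc12a2 promoter: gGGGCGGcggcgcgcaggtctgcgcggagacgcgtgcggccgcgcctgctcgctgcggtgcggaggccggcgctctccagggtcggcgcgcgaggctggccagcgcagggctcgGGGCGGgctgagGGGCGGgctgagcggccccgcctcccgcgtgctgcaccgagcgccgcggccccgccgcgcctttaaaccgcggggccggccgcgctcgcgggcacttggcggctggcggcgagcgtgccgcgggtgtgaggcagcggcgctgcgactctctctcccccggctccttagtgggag
Clcn3 promoter: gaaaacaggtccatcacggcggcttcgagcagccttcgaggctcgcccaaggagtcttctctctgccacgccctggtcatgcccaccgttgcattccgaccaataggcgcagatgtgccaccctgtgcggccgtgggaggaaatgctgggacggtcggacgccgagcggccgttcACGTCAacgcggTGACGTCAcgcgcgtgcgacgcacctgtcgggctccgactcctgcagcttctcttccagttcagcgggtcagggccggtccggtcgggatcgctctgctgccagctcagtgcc

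GGGCGG, searched on both strands, was in 6 of the 7 promoters, against 34.9% of all 27457 promoters of this length. There were 5 matches in Ano1, 5 in Kcnma1 with 2 overlapping pairs, 3 in Slc12a2, 2 in Aqp5, 2 in Cftr, 1 in Aqp1 and 0 in Clcn3. GC content was 82.3% in Aqp5, 80.7% in Slc12a2, 78.3% in Kcnma1, 73.7% in Ano1, 66.0% in Clcn3, 65.0% in Cftr and 64.0% in Aqp1, with a median of 52.3% over all promoters. CACGTG was in Aqp5 alone among the 7 and in 6.65% of all promoters, and it reads the same on both strands. TGACGT matched 3 times in Clcn3, with 2 matches overlapping on opposite strands, and was in 8.22% of all promoters. TATAAA was in Aqp1 alone and in 14.3% of all. CATATG, an E-box that MIST1 binds in mouse, was in none of the 7 and in 3.96% of all promoters. CAGCTG, which the study names as a MIST1 consensus sequence, was in none of the 7 and in 15.1% of all. The CAGCTG sites that the study described in Psp, a saliva protein gene, lay in introns and not in the promoter. These matches are descriptions of letters and were not tested as binding sites.

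Across the ages 6 of the 9 members changed and 3 did not pass the test. By limma's moderated F test over the 9 ages, with Benjamini-Hochberg adjustment over the 31042 probe sets, 9 of the 16 probe sets passed 0.05, where 24.5% of all probe sets did. They were the single probe sets of Slc12a2, Kcnn4, Ano1 and Aqp5, both of Atp1b1 and all 3 of Kcnma1. Adjusted p was 4.91e-08 and 1.23e-07 for Atp1b1, 1.05e-07 for Slc12a2, 2.21e-07 for Kcnn4, 0.00013 for Ano1, 0.000265 to 0.000739 for Kcnma1 and 0.00502 for Aqp5. Both probe sets of Aqp1 (0.245 and 0.637), that of Cftr (0.0728) and the 4 of Clcn3 (0.211 to 0.817) missed the threshold. In a bulk capture, fewer cells that express a gene and less of its RNA per cell cannot be told apart.

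**Figure D1:**
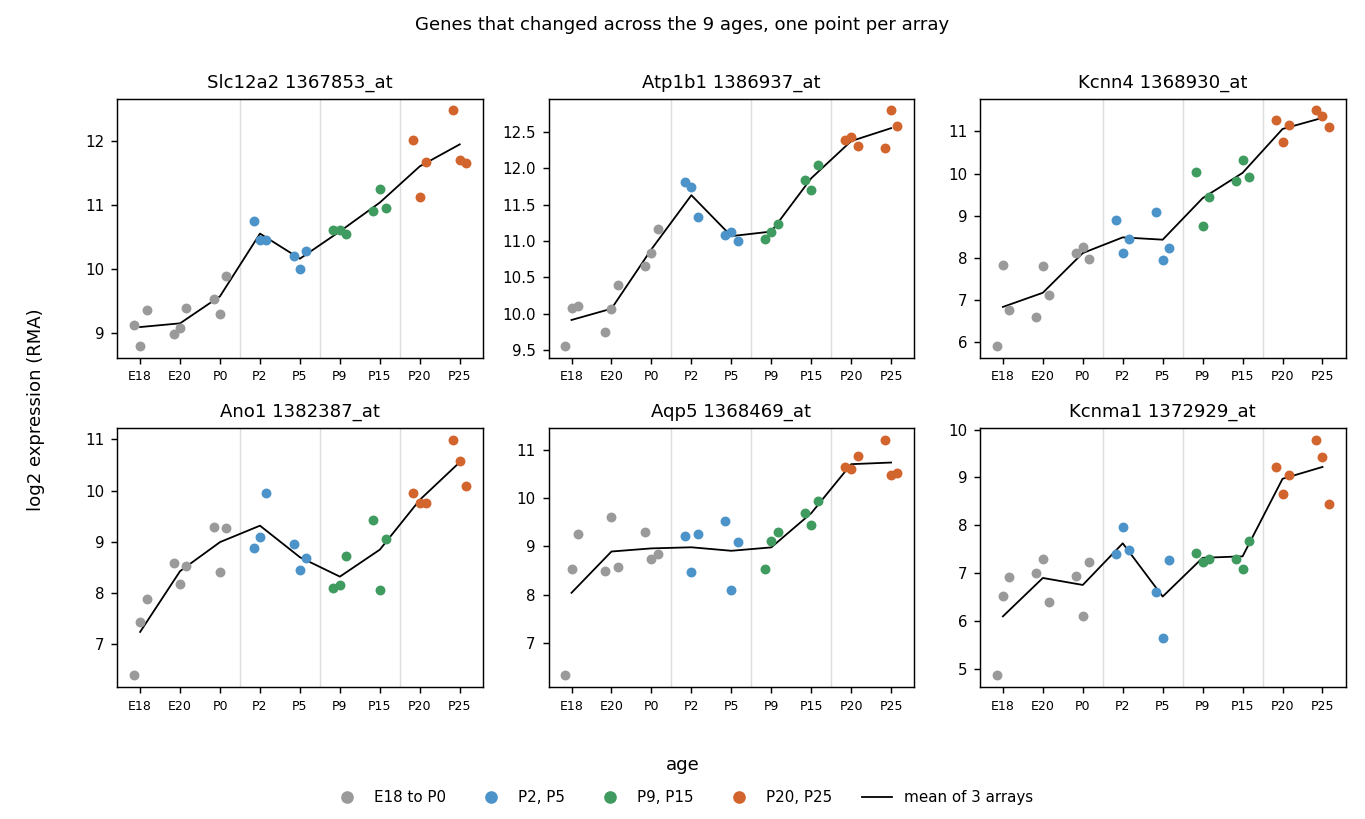
Log2 expression (RMA, y axis) against age (x axis) for the leading probe sets of Slc12a2, Atp1b1, Kcnn4, Ano1, Aqp5 and Kcnma1, with 1 point per array coloured by stage and a line through the means of 3 arrays. All 6 were highest at P25. Slc12a2 and Atp1b1 already stood higher at P2 than at P0, while the Kcnma1 arrays of P20 and P25, at 8.44 to 9.79, all lie above its earlier ones.

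Chloride loading and the sodium pump rose in the birth step and again at weaning. Slc12a2 (1367853_at) encodes NKCC1, which brings sodium, potassium and chloride into the acinar cell. Its arrays read 9.14, 8.80 and 9.36 at E18, 8.99, 9.09 and 9.39 at E20 and 9.54, 9.30 and 9.89 at P0. They then read 10.75, 10.46 and 10.45 at P2, 10.20, 10.01 and 10.29 at P5 and 10.61, 10.61 and 10.55 at P9. The last ages gave 10.91, 11.24 and 10.95 at P15, 12.00, 11.12 and 11.67 at P20 and 12.47, 11.70 and 11.66 at P25. Every array of P2 and P5 lay above every array of E18 to P0, which no other member showed and which held for 0.441% of all probe sets. P20 replicate 2, at 11.12, was within the range of P15. Slc12a2 rose in the birth step by 1.08 ± 0.16 (SE), a fold of 2.12 (adjusted p = 0.000413), and again in the weaning step by 0.96 ± 0.18 (adjusted p = 0.00153).

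Atp1b1 encodes the beta 1 subunit of the sodium-potassium ATPase, which the pump needs to reach the membrane. The leading probe set (1386937_at) read 9.56, 10.08 and 10.11 at E18, 9.75, 10.07 and 10.39 at E20 and 10.66, 10.84 and 11.16 at P0. It read 11.81, 11.74 and 11.34 at P2, 11.08, 11.12 and 11.01 at P5 and 11.03, 11.12 and 11.23 at P9. It ended at 11.84, 11.71 and 12.05 at P15, 12.39, 12.43 and 12.31 at P20 and 12.28, 12.80 and 12.59 at P25. The values stepped up to P2, stood lower at P5 and P9 and stepped up again, with the P20 and P25 arrays all above those of P9 and P15. The birth step was 1.06 ± 0.14 (adjusted p = 0.000101) and the weaning step 0.97 ± 0.15 (adjusted p = 0.000384). The second probe set (1367814_at) read 7.41 to 8.96 at E18, 10.24 to 10.71 at P2 and 11.43 to 11.99 at P25, and rose by 1.28 ± 0.18 in the birth step (adjusted p = 0.000202) and by 1.17 ± 0.20 in the weaning step (adjusted p = 0.000674).

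Both calcium-activated potassium channels of the acinar cell rose. Kcnn4 (1368930_at), the intermediate conductance channel, had the widest range of age means among the members, 4.49 log2 units. Its arrays read 5.90, 7.84 and 6.75 at E18, 6.59, 7.80 and 7.11 at E20 and 8.12, 8.26 and 7.96 at P0. They read 8.90, 8.11 and 8.45 at P2, 9.09, 7.96 and 8.24 at P5 and 10.04, 8.76 and 9.44 at P9. They reached 9.81, 10.32 and 9.91 at P15, 11.26, 10.76 and 11.15 at P20 and 11.50, 11.36 and 11.11 at P25. All arrays of P20 and P25 exceeded all arrays of P9 and P15, whereas neighbouring earlier stages overlapped. Kcnn4 rose in the birth step by 1.09 ± 0.27 (adjusted p = 0.0268), in the middle step by 1.26 ± 0.29 (adjusted p = 0.0456) and in the weaning step by 1.48 ± 0.29 (adjusted p = 0.0027). The birth step counts P0 as before birth, and the Kcnn4 mean was already higher at P0 than at E20, by 0.94 ± 0.41 (unadjusted p = 0.0332). From P0 to P2 it changed by 0.37 ± 0.41 (unadjusted p = 0.378). Neither change passed after adjustment. Kcnn4 was the only member past the threshold in the middle step, where 0.28% of all probe sets rose. The middle call held in 7 of the 27 fits that left out 1 array. The birth call was lost without E20 replicate 1 (adjusted p = 0.0512), P2 replicate 1 (0.0829), P2 replicate 3 (0.0512) or P5 replicate 1 (0.0851), with changes of 0.92 to 1.10. It was also lost with only the ages of the step fitted (0.0749), with 4 arrays of high cartilage, muscle or epidermis markers left out (0.0779) and with endothelium markers as a covariate (0.0553).

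Kcnma1 encodes the pore of the large conductance BK channel. The leading probe set (1372929_at) read 4.86, 6.51 and 6.91 at E18, 6.99, 7.30 and 6.40 at E20 and 6.93, 6.10 and 7.23 at P0. It read 7.40, 7.97 and 7.49 at P2, 6.61, 5.64 and 7.27 at P5 and 7.43, 7.23 and 7.29 at P9. It read 7.29, 7.09 and 7.67 at P15, 9.21, 8.66 and 9.04 at P20 and 9.79, 9.43 and 8.44 at P25. Before P20 the stages overlapped, and every P20 and P25 array stood above all earlier ones. The weaning step was 1.76 ± 0.33, a fold of 3.39 (adjusted p = 0.00163), and the birth step 0.48 ± 0.30 (adjusted p = 0.512).

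Both other Kcnma1 probe sets rose in the weaning step as well. Probe set 1370472_a_at lay at 7.42 to 9.66 in P20 and P25, against 5.53 to 7.50 in P9 and P15, and changed by 1.85 ± 0.39 (adjusted p = 0.00438). The dimmest, 1369334_at, lay at 4.15 to 5.15 against 3.11 to 3.45 and changed by 1.49 ± 0.22 (adjusted p = 0.000206). Its mean of 3.61 is under 4.58, the limit of the lowest 25% of probe sets. In the birth step they gave -0.21 ± 0.35 and -0.16 ± 0.20 and missed the threshold (adjusted p = 0.887 and 0.832).

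Among the chloride transporters, Ano1, the calcium-activated channel of the apical membrane, rose. Its probe set (1382387_at) read 6.39, 7.43 and 7.89 at E18, 8.59, 8.17 and 8.52 at E20 and 9.30, 8.41 and 9.28 at P0. It read 8.88, 9.10 and 9.96 at P2, 8.97, 8.45 and 8.68 at P5 and 8.09, 8.15 and 8.72 at P9. It read 9.44, 8.05 and 9.05 at P15, 9.95, 9.76 and 9.75 at P20 and 11.00, 10.58 and 10.09 at P25. Means were higher at P0 than at E18, lower at P5 and P9 than at P2, and all P20 and P25 arrays stood above all P9 and P15 arrays. Ano1 rose in the weaning step by 1.60 ± 0.28, a fold of 3.04 (adjusted p = 0.000763). The birth step of 0.79 ± 0.25 missed the threshold (adjusted p = 0.104). P0 minus the mean of E18 and E20 was 1.16 ± 0.34, which had an unadjusted p of 0.00247 and an adjusted p of 0.432.

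Cftr and Clcn3 did not pass the test over ages. Cftr (1384960_at), the cyclic AMP-activated chloride channel known in salivary glands mainly from duct cells, read 4.49, 5.88 and 7.98 at E18, 5.18, 5.33 and 5.04 at E20 and 5.15, 4.66 and 4.74 at P0. It read 7.81, 7.51 and 7.61 at P2, 5.59, 5.38 and 5.17 at P5 and 5.70, 5.88 and 7.64 at P9. It read 6.86, 5.03 and 7.89 at P15, 4.71, 7.39 and 6.87 at P20 and 7.91, 7.38 and 6.44 at P25. The 3 P2 arrays stood together near the top of the range, while the arrays of E18, of P15 and of P20 differed widely within each age. P2 minus P0 was 2.79 ± 0.76, with an unadjusted p of 0.00145 and an adjusted p of 0.194. The birth step was 1.13 ± 0.49 (adjusted p = 0.279) and the weaning step 0.28 ± 0.54 (adjusted p = 0.785). The 12 duct markers averaged 5.99 to 6.51 per array in P2 and P5, against 4.70 to 5.84 in E18 to P0, and 2 of the 12 rose in the birth step. One of them, Smgc, averaged 8.91 at P2 and 11.64 at P5, against 3.87 at P0, while the other 11 averaged 6.03 at P2 and 5.70 at P5, against 5.47 at P0. Their part in the P2 values was not tested.

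Clcn3 encodes ClC-3, a chloride-proton exchanger of endosomes and vesicles. Its leading probe set (1378232_at) had medians of 8.85 in stage 1 (8.004 to 9.46), 8.41 in stage 2 (6.97 to 8.61), 8.79 in stage 3 (8.01 to 9.24) and 8.94 in stage 4 (7.60 to 9.42). These ranges overlap throughout. The birth step was -0.63 ± 0.27 (adjusted p = 0.266), and the weaning step 0.15 ± 0.30 (adjusted p = 0.799), with a 95% interval of -0.47 to 0.76. The other 3 Clcn3 probe sets gave birth steps of -0.55, -0.26 and -0.43 and weaning steps of -0.42, 0.05 and -0.29, with none past the threshold.

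Of the water channels, Aqp5 rose. Aqp5 (1368469_at), through which water crosses the apical membrane of the acinus, read 6.32, 8.52 and 9.26 at E18, 8.50, 9.61 and 8.58 at E20 and 9.29, 8.74 and 8.84 at P0. It read 9.21, 8.47 and 9.26 at P2, 9.53, 8.10 and 9.10 at P5 and 8.53, 9.11 and 9.30 at P9. It read 9.70, 9.44 and 9.94 at P15, 10.64, 10.60 and 10.89 at P20 and 11.22, 10.49 and 10.52 at P25. Apart from E18 replicate 1, arrays up to P9 lay between 8.10 and 9.61, and all of P20 and P25 lay above all earlier ones. E18 replicate 1 also had the highest mean of 8 cartilage and bone markers, 10.58 on the log2 scale, where the next array, E20 replicate 1, had 8.55, and their part in its Aqp5 value was not tested. Aqp5 rose in the weaning step by 1.39 ± 0.37, a fold of 2.62 (adjusted p = 0.0206), against 0.32 ± 0.33 in the birth step (adjusted p = 0.768). The weaning call was lost without P15 replicate 2 (1.33, adjusted p = 0.05) and without P2 replicate 3 and P9 replicate 1 together (1.28, adjusted p = 0.0508).

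Aqp1, a water channel best known from endothelium and red cells, passed the threshold in no step. Probe set 1387651_at read 8.37, 6.98 and 6.99 at E18, 8.43, 7.81 and 8.31 at E20 and 7.77, 5.98 and 8.77 at P0. It read 9.26, 7.11 and 7.20 at P2, 8.73, 8.81 and 8.44 at P5 and 6.32, 7.97 and 8.04 at P9. It read 6.66, 6.41 and 7.86 at P15, 8.55, 8.40 and 8.60 at P20 and 7.22, 7.16 and 7.25 at P25. Arrays of P5 and of P20 lay close together and high, while those of P0 ran from 5.98 to 8.77. The middle step was -1.05 ± 0.44 (adjusted p = 0.261), and the weaning step 0.65 ± 0.44 (adjusted p = 0.37). Probe set 1369625_at ran from 4.10 to 8.70 with a mean SD within ages of 1.27. The 12 endothelium markers averaged 6.20 to 7.50 in stage 1, 6.83 to 7.74 in stage 2, 6.47 to 7.37 in stage 3 and 6.21 to 7.07 in stage 4, and their part in the Aqp1 values was not tested.

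**Figure D2:**
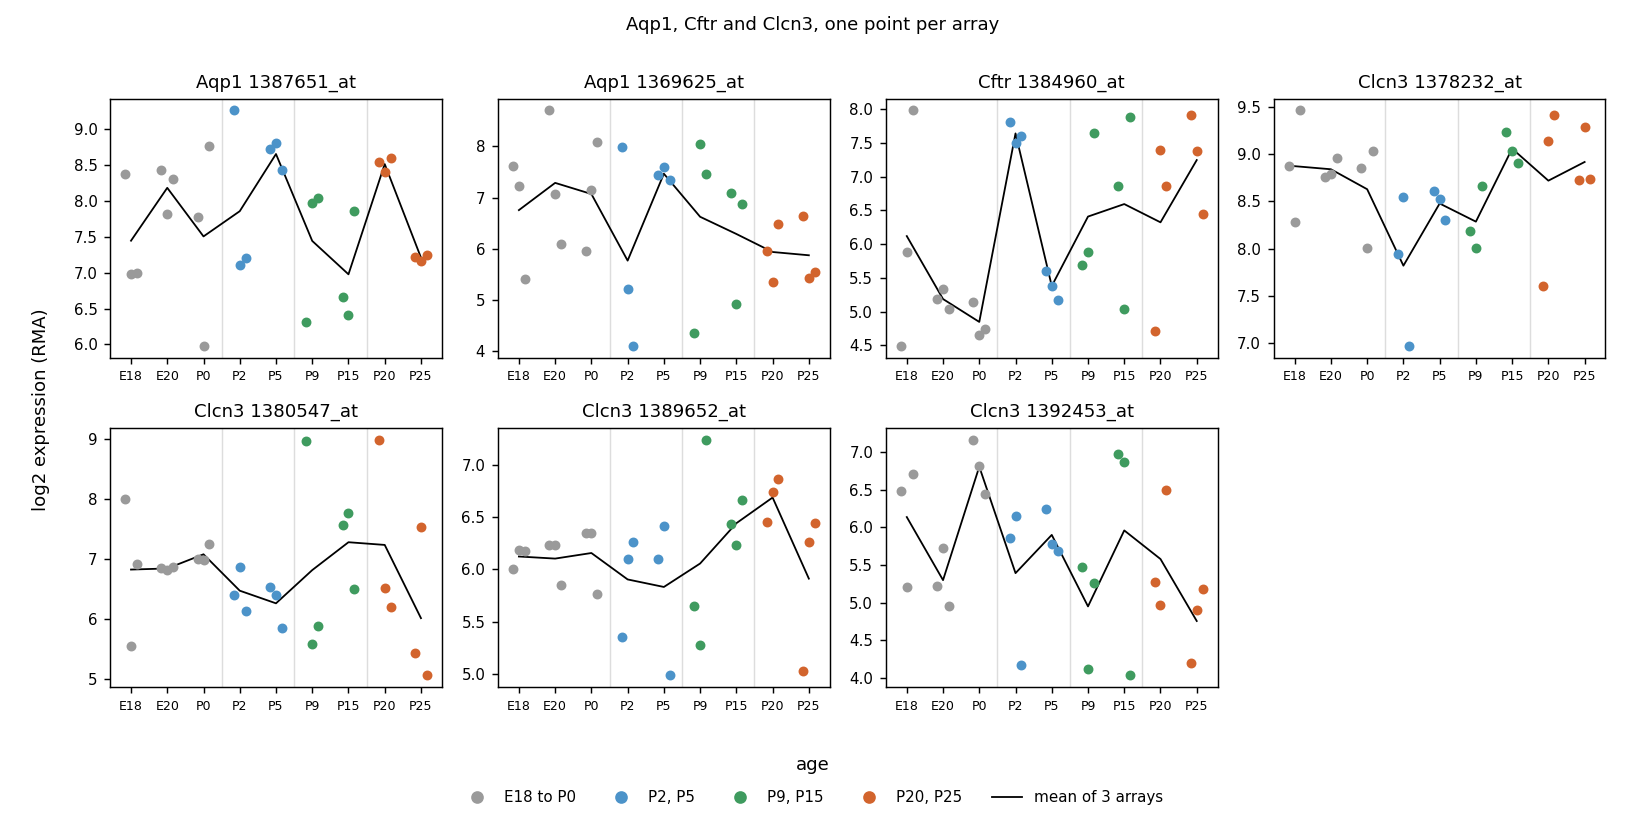
Log2 expression (RMA, y axis) against age (x axis) for both Aqp1 probe sets, the Cftr probe set and the 4 Clcn3 probe sets, with 1 point per array coloured by stage and a line through the means of 3 arrays. No probe set here passed the test over the 9 ages, and the 3 Cftr arrays of P2 stand together at 7.51 to 7.81.

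In the birth step 4 of the 16 probe sets rose and 0 fell, where 1.63% of all probe sets rose and 1.33% fell. They belong to Slc12a2, Atp1b1 and Kcnn4, and 7 of the 16 had an unadjusted p under 0.05. In the weaning step 9 of the 16 rose and 0 fell, where 4.09% of all rose and 4.27% fell. All 9 probe sets past the F test were among them. The median weaning step was 0.96 over the 16 probe sets and 0.09 over all probe sets, and the median birth step 0.40 and -0.01. In 7 of the 16 probe sets every P20 and P25 array exceeded every P9 and P15 array, which held for 1.99% of all probe sets. They were those of Aqp5, Ano1 and Kcnn4, both of Atp1b1 and 1372929_at and 1369334_at of Kcnma1.

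The difference between the weaning and the birth step was tested in the same fit. It passed for 2 of the 16 probe sets, both of Kcnma1, where 1.34% of all probe sets passed with a larger weaning step. The median difference of all probe sets was 0.11, and relative to it Kcnma1 1369334_at differed by 1.54 ± 0.30 (adjusted p = 0.00314 before this correction) and 1370472_a_at by 1.95 ± 0.53 (adjusted p = 0.032). The leading Kcnma1 probe set gave 1.17 ± 0.45 (adjusted p = 0.127), Aqp5 0.97 ± 0.49 (0.264) and Ano1 0.71 ± 0.37 (0.262). Those of Aqp5 and Kcnma1 passed once E18 replicate 1 was left out (adjusted p = 0.0345 and 0.0304), the array with the lowest Aqp5 and Kcnma1 1372929_at. The call of 1370472_a_at was lost on leaving out replicate 2 of P2, P5, P15 or P25, replicate 1 of P9 or P20, or replicate 3 of P15 (adjusted p = 0.0534 to 0.0643). For Slc12a2, Atp1b1 and Kcnn4 the step sizes were not distinguishable, with 95% intervals of the uncorrected difference of -0.62 to 0.38 for Slc12a2, -0.53 to 0.34 for the leading Atp1b1 probe set and -0.43 to 1.21 for Kcnn4.

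**Figure D3:**
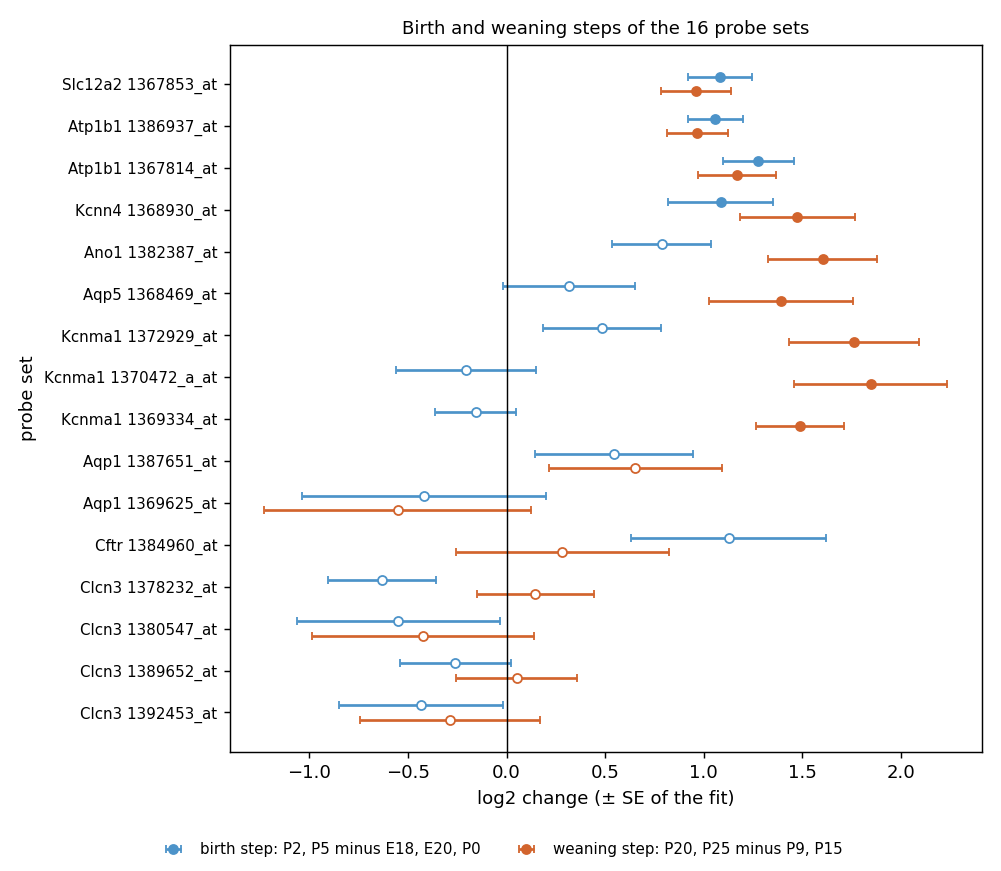
Log2 change (x axis, with the SE of the fit as bars) of each of the 16 probe sets (y axis) in the birth step, P2 and P5 minus E18, E20 and P0, in blue, and in the weaning step, P20 and P25 minus P9 and P15, in orange. Filled points passed an adjusted p of 0.05. Slc12a2, Atp1b1 and Kcnn4 have filled points in both steps, Ano1, Aqp5 and Kcnma1 in the weaning step only, and Aqp1, Cftr and Clcn3 in neither.

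Over the whole course, P25 against E18, 9 of the 16 probe sets rose and 0 fell, where 20.1% of all probe sets rose. The median of all probe sets was 0.25 higher at P25, and the changes are given relative to it. Kcnn4 changed most, by 4.25 ± 0.41 or 19.0-fold, followed by Atp1b1 1367814_at (3.24 ± 0.28), Ano1 (3.07 ± 0.39), Kcnma1 1372929_at (2.88 ± 0.47), Slc12a2 (2.60 ± 0.25), Aqp5 (2.46 ± 0.52) and Atp1b1 1386937_at (2.39 ± 0.22). With errors of 0.22 to 0.52, neighbours in this order lay within their errors of each other below Kcnn4. For Aqp5 the call was lost with only E18 and P25 fitted (adjusted p = 0.0696), with muscle, epidermis and cartilage covariates (1.48 ± 0.50, adjusted p = 0.0536) and with the fibroblast covariate (0.79 ± 0.66, adjusted p = 0.498), against 2.71 ± 0.52 before the correction for the median. The other Kcnma1 probe sets gave 2.56 ± 0.55 and 1.49 ± 0.32. The remaining values were 0.88 ± 0.76 for Cftr, -0.20 ± 0.42 for Clcn3 1378232_at and -0.48 ± 0.62 for Aqp1 1387651_at, none past the threshold.

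Steps between adjacent ages, each resting on 3 arrays against 3, passed for no member. From P15 to P20, 0 of the 16 probe sets passed, where 0.248% of all probe sets rose, and 9 had an unadjusted p under 0.05. The largest changes among them were in Kcnma1 1372929_at (1.62 ± 0.47) and Aqp1 1387651_at (1.54 ± 0.62). From P9 to P15, 0 passed, where 0.0226% of all rose, and 2 had an unadjusted p under 0.05, both of Atp1b1. Atp1b1 1386937_at changed by 0.73 ± 0.22 from P9 to P15 (unadjusted p = 0.00292, adjusted p = 0.454) and by 0.51 ± 0.22 from P15 to P20. Slc12a2 changed by 0.45 ± 0.25 and 0.56 ± 0.25. Aqp5 changed by 0.71 ± 0.52 from P9 to P15 and by 1.02 ± 0.52 from P15 to P20. Kcnn4 changed by 0.60 ± 0.41 and 1.04 ± 0.41 and Ano1 by 0.53 ± 0.39 and 0.97 ± 0.39. Kcnma1 1370472_a_at changed by 1.04 ± 0.55 and 1.44 ± 0.55. For all of these probe sets the weaning step does not place the rise after P15. Kcnma1 1372929_at and 1369334_at changed by 0.03 ± 0.47 and 0.06 ± 0.32 from P9 to P15. From P15 to P20 they changed by 1.62 ± 0.47 and 1.27 ± 0.32. From P0 to P2, 0 passed, where 0.113% of all rose, and 5 had an unadjusted p under 0.05, among them Slc12a2 (0.98 ± 0.25) and Atp1b1 1386937_at (0.74 ± 0.22). For the day of birth, P0 minus E18 and E20, 4 did, with Atp1b1 1386937_at at 0.89 ± 0.19 (unadjusted p = 0.000109, adjusted p = 0.102) and Kcnn4 at 1.11 ± 0.36 (unadjusted p = 0.00535, adjusted p = 0.558).

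Other cells changed in the same windows. In the weaning step 7 of the 9 fibroblast markers fell, with a median change of -1.20, and the list averaged 9.66 to 10.66 on P20 and P25 arrays against 10.88 to 11.33 on P9 and P15 arrays. In the same step 3 of 8 epidermis and hair follicle markers (median -1.25), 2 of 8 of cartilage and bone (-0.93), 2 of 8 of smooth muscle and myoepithelium (-0.87), 3 of 12 of duct, 1 of 9 of adipocytes and 1 of 12 of endothelium fell. Of the duct markers 1 of 12 rose, with a list median of 0.05. Of the lymphocyte and plasma cell markers 1 of 6 rose and 0 fell (median 0.42). With the fibroblast level as a covariate, added after the data were seen, 1 of the 9 weaning rises passed the threshold, that of Atp1b1 1367814_at (1.36 ± 0.32, adjusted p = 0.0452). Aqp5 gave 0.05 ± 0.47 in that fit (adjusted p = 0.982), Kcnn4 0.76 ± 0.44 (0.52), Kcnma1 1372929_at 0.90 ± 0.48 (0.484), Ano1 1.39 ± 0.45 (0.166), Slc12a2 0.94 ± 0.29 (0.147) and Atp1b1 1386937_at 0.69 ± 0.24 (0.208). The changes of Ano1, Slc12a2 and both other Kcnma1 probe sets stayed within 1 SE of those without the covariate, and those of Aqp5, Kcnn4, Kcnma1 1372929_at and Atp1b1 1386937_at were lower by more than 1 SE. The 4 birth rises of Slc12a2, Atp1b1 and Kcnn4 all passed with this covariate. Acinar markers rose in the same steps, 5 of 7 at weaning with a median of 1.90 and 4 of 7 at birth with a median of 3.24, and their part in the members' changes was not tested.

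In the birth step 3 of 8 markers of epidermis and hair follicle, 5 of 8 of smooth muscle and myoepithelium and 8 of 9 of adipocytes also rose, with median changes of 1.74, 1.28 and 2.47. With skeletal muscle, epidermis and cartilage markers as covariates, 1 of the 4 birth rises passed, Atp1b1 1386937_at. Slc12a2 gave a change of 1.17 ± 0.29 (adjusted p = 0.0613), Atp1b1 1367814_at 1.25 ± 0.32 (0.0729) and Kcnn4 0.92 ± 0.37 (0.287). The weaning step of Aqp5 was 0.75 ± 0.31 in that fit (adjusted p = 0.186).

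**Figure D4:**
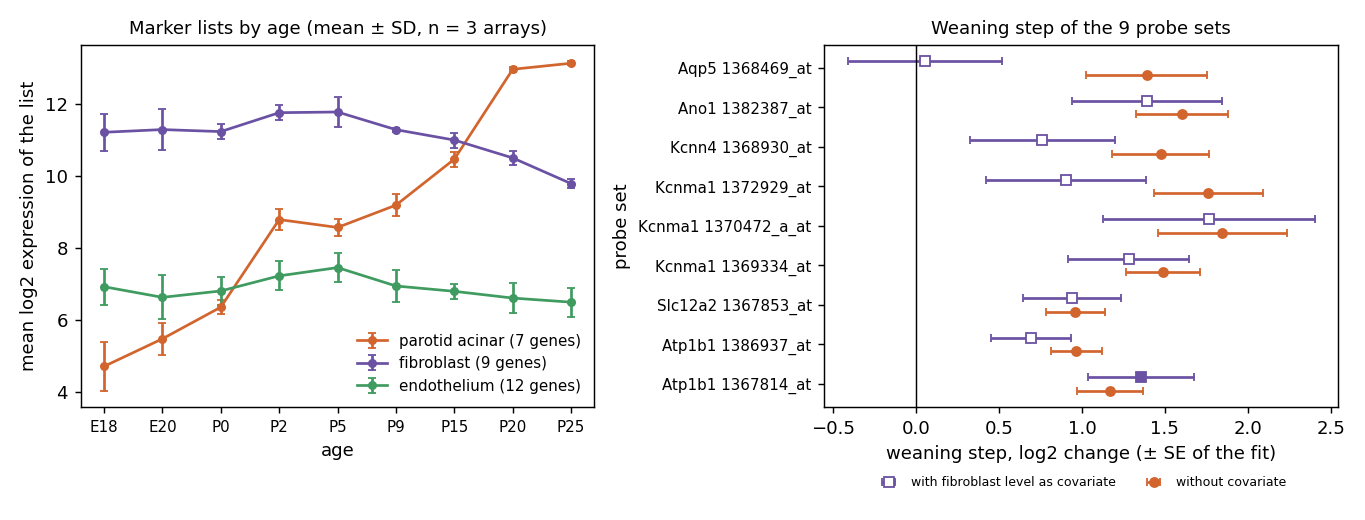
Left, mean log2 expression (y axis) of the acinar, fibroblast and endothelium marker lists by age (x axis), with the SD over 3 arrays as bars. Right, log2 change in the weaning step (x axis, SE of the fit as bars) of the 9 probe sets that rose, with the fibroblast level as a covariate in purple squares and without it in orange circles. A filled square passed an adjusted p of 0.05 with the covariate, which 1 of the 9 did, and Aqp5 lies at 0.05 in that fit.

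Around the members, 92 other genes of the secretion pathway were measured. Of these, 7 rose and 0 fell in the birth step, and 8 rose and 2 fell in the weaning step, where 1.63% of all probe sets rose and 1.33% fell at birth and 4.09% rose and 4.27% fell at weaning. The median changes were 0.06 and 0.20, against -0.01 and 0.09 over all probe sets. In the single lists, 1 call among 8 to 19 genes is too few to set apart from these shares. Chloride and bicarbonate loading (14 genes) had 2 rises at birth and 1 rise and 1 fall at weaning. Stk39, which encodes the kinase SPAK that activates NKCC1, rose in both, by 0.94 ± 0.22 at birth (adjusted p = 0.0174) and 1.15 ± 0.24 at weaning (adjusted p = 0.00355), as Slc12a2 did. Car2, a cytosolic carbonic anhydrase, rose at birth by 1.69 ± 0.38 (adjusted p = 0.0154). Slc12a4, the potassium-chloride exporter KCC1, fell by 0.88 ± 0.23 on the log2 scale at weaning (adjusted p = 0.0196).

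Potassium channels and their subunits (18 genes) had 3 rises in each step. Lrrc26, the gamma subunit that lets BK channels open at more negative voltages, rose by 1.16 ± 0.25 at birth (adjusted p = 0.0115) and 0.99 ± 0.28 at weaning (adjusted p = 0.0291), while its pore gene Kcnma1 passed at weaning. Kcnk6, a member of the 2-pore potassium channels, rose by 1.59 ± 0.33 and 1.55 ± 0.36 in the same steps (adjusted p = 0.00793 and 0.00899). Kcne1 rose at birth (1.61 ± 0.34, adjusted p = 0.00988) and Kcne2 at weaning (0.56 ± 0.17, adjusted p = 0.047), both accessory subunits of voltage-gated channels.

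Sodium pump partners (10 genes) had 2 rises, both at weaning, Fxyd2 (1.98 ± 0.35, adjusted p = 0.000878) and Fxyd3 (1.31 ± 0.31, adjusted p = 0.0119), small proteins that tune the pump. Fxyd2 averaged 4.17 and Kcne2 4.53, under the 4.58 that limits the lowest 25% of probe sets. Among 19 other chloride channel genes, Lrrc8b, a subunit of the volume-regulated anion channel, rose at weaning (0.72 ± 0.22, adjusted p = 0.049). Of 14 genes of the calcium trigger, Orai1, the pore for calcium entry after store release, rose at weaning (0.94 ± 0.29, adjusted p = 0.0442). Of 8 other water channels, Aqp7 rose at birth (1.54 ± 0.35, adjusted p = 0.0175), a gene known from adipocytes, whose markers rose in the same step. The part of adipocytes in the Aqp7 change was not tested. Of 9 genes of the paracellular route, Cldn8 rose at birth (1.56 ± 0.27, adjusted p = 0.00169) and Cldn4 fell by 1.80 ± 0.45 on the log2 scale at weaning (adjusted p = 0.0146), both claudins of the tight junction.

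The rising members were grouped by their rise with age, so high correlations among their age profiles follow in part from that choice. Over the 9 age means, Pearson's r was 0.979 between Kcnn4 and Slc12a2, 0.976 between Slc12a2 and Atp1b1, 0.944 between Aqp5 and Kcnma1 and 0.809 between Kcnn4 and Ano1. Values for Clcn3 against the 6 rising genes ran from -0.025 to 0.27, and for Aqp1 from -0.145 to 0.038. Among 5363 named probe sets past the F test, the profiles nearest to Slc12a2 were those of Tbc1d30, Rap1gap and Oxr1 (0.991 to 0.993), to Kcnn4 those of Xbp1, Slc31a2 and Oxr1 (0.989 to 0.990), and to Kcnma1 those of P2rx4, Yipf3 and Man1b1 (0.980 to 0.988). Nearest to Aqp5 were Slc25a29, Slc39a7 and Nudt22 (0.979 to 0.988), to Atp1b1 Ppp1r1b, Slc17a5 and Aass (0.979 to 0.984), and to Ano1 Bckdha, Mindy1 and Mtrr (0.963 to 0.968). The nearest profiles were less close for Cftr (Itgb2, 0.912), Aqp1 (Lxn, 0.927) and Clcn3 (Socs7, 0.825). The search held only probe sets past the F test, which these genes missed, so their lower values cannot be told apart from that filter. These values describe 9 age means that share the same arrays.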

How the data were processed

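The authors amplified the captured RNA, hybridised it after biotin labelling and deposited log2 expression values made by RMA, which corrects background, normalises the arrays to each other and combines the probes of a set. The RMA software version is not given in the sources used here. No further normalisation was applied to the deposited log2 table, which held 31099 probe sets, 57 of them array controls that were dropped. Of the 31042 tested, 20826 were paired with 1 gene symbol by the platform annotation (14217 genes), 436 with several and 9780 with none, and 20764 matched the RefSeq table of GRCr8 by gene ID. Promoter sequences came from the RefSeq table of that build. Array medians lay between 5.91 and 6.13. Precision is limited by the small number of arrays per age.

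limma 3.58.1 in R 4.3.3 was fitted with 1 coefficient per age over all 27 arrays, with moderated variances (eBayes) on 18 residual degrees of freedom. Two-sided p-values were given Benjamini-Hochberg adjustment over all 31042 probe sets, and 0.05 was the threshold. The script was tested on simulated data. All probe sets of the 9 genes were given, with up to 4 genes per pathway list by the size of t among those past the threshold in the birth or weaning step, and the 3 genes with the nearest age profile per member, 1 probe set per gene. Members, gene lists and markers were chosen with earlier results of these data known. Alternatives covered centring, quantile normalisation, a filter at the median level, the prior, array weights, a replicate block, the arrays and ages included, marker covariates and 1 value per gene. Python 3.11.15 with pandas 2.3.3 and matplotlib 3.10.9 was used for summaries and plots.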

Additional observations from a re-analysis of the deposited data

Results flagged for a closer look

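A gap test on the 16 probe sets in each of the 4 stages (64 groups of 6 or 9 arrays) marked 8 groups in which 1 array stood apart. Its limits mark about 1 in 20 samples drawn from 1 normal distribution. Each group here joins several ages, so that rate is not a chance rate for these groups. E18 replicate 1 had 6.32 for Aqp5, with the nearest array of its stage at 8.50, and 4.86 for Kcnma1 1372929_at, with the nearest at 6.10. E18 replicate 3 had 7.98 for Cftr against a nearest value of 5.88. E18 replicate 2 had 5.55 for Clcn3 1380547_at against 6.81, and E20 replicate 2 had 4.34 for Kcnma1 1369334_at against 3.58.

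P25 replicate 2 had 11.99 for Atp1b1 1367814_at, above the next array at 11.45. P25 replicate 1 had 5.03 for Clcn3 1389652_at, below the next at 6.26, and P2 replicate 3 had 4.18 for Clcn3 1392453_at, below the next at 5.68. Without E18 replicate 1 P25 minus E18 was 1.85 for Aqp5 (adjusted p = 0.0035) and 2.51 for Kcnma1 1372929_at (adjusted p = 0.000451), against 2.71 and 3.13 with it.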

How the results depend on the processing

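The counts of 9 probe sets past the test over ages, 4 in the birth step, 9 in the weaning step and 9 at P25 against E18 held within 1.5 times under median centring, quantile normalisation, the brighter-probe filter, a trend prior, array weights, a replicate block, no moderation, 1 value per gene and every single-array omission. The fit with 1 value per gene counts genes, at most 9, against a main count of probe sets. The brighter-probe filter drops 1369334_at of Kcnma1 and 1392453_at of Clcn3. These counts are therefore not of the same units or set as the main ones. Within the limit of 1.5 times the birth count was 3, without Kcnn4, in 4 single omissions, with only the ages of the step, with 4 arrays of high marker levels left out and with the endothelium covariate. The middle step count of 1 was 0 with median centring, the replicate block, only the ages of the contrast, no moderation, 4 arrays left out for high cartilage, muscle or epidermis markers (replicate 1 of E18, E20 and P0, replicate 2 of P5), P2 replicate 3 and P9 replicate 1 left out, and each marker covariate, and ran from 0 to 1 over the single omissions. The count of 2 for the difference of steps was 1 with dim probe sets left out, with either set of arrays left out, with no moderation and with 1 value per gene, 0 with muscle, epidermis and cartilage covariates and with the fibroblast covariate, and ran from 1 to 4 over single omissions. The birth count was 1 with muscle, epidermis and cartilage covariates. The 4 arrays left out for high markers were not all such arrays. P9 replicate 3, P5 replicate 1 and P5 replicate 3, with skeletal muscle means of 12.64, 11.54 and 11.32, stayed in that fit. With the fibroblast covariate, added after the data were seen, the weaning count was 1 and the P25 against E18 count 5. The one reversal was the birth step of Kcnma1 1372929_at, -0.015 with muscle, epidermis and cartilage covariates (adjusted p = 0.996). Of 1235 single values under alternatives, 1164 kept direction and side of the threshold, 70 kept direction but lost the call and 1 reversed. The causes were not tested, beyond the fewer arrays or added terms of each fit.

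The 3 arrays of an age came from separate litters. Deviations from the age means correlated at 0.026 on average between arrays of the same number (108 pairs, -0.108 to 0.459). Between different numbers they correlated at -0.013 (216 pairs, -0.279 to 0.141), so the highest same-number value lies above all of these. Replicate 1 of E18, E20 and P0 shared high skeletal muscle markers (11.63, 11.9 and 11.45). A mean near 0 does not exclude likeness among such arrays. The main fit did not pair arrays by number, and a replicate block was fitted as an alternative. The replicate block left 9, 4, 9, 9 and 2 calls over ages, at birth, at weaning, at P25 against E18 and for the difference, and 0 in the middle step. Precision is limited by 3 arrays per age, and depth has no counterpart on arrays.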
